A study of Drosophila melanogaster with 18 samples.

Results

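Microtubules are polymers of alpha- and beta-tubulin, and gamma-tubulin, which sits in ring complexes, starts their growth. The fly carries several genes for each kind of tubulin. Some are read in nearly all cells, whereas alphaTub67C and gammaTub37C are known as maternal genes, whose products the germ cells load into the egg for the oocyte spindle and the first embryonic divisions. The genes described here are 6 tubulin genes chosen by name, though with earlier results of these data known. They are alphaTub67C, alphaTub84B, alphaTub84D, betaTub56D, gammaTub23C and gammaTub37C. Of these, 5 had a row among the 15682 genes of the table under their current identifier. betaTub56D, the main ubiquitous beta-tubulin, was matched to no row by its identifier FBgn0284243 and was not analysed here.

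Polyadenylated RNA of whole *Drosophila melanogaster* ovaries was sequenced in 18 libraries from 3 separate experiments. Each experiment compared 3 libraries of ovaries labelled as mutant for a subunit of SAGA with 3 libraries of its own wild-type FRT control. SAGA is a coactivator with a histone acetyltransferase module, to which Ada2b belongs, and a deubiquitinase module, to which Ataxin-7 and non-stop belong. The mutated genes were ada2b, Ataxin-7 (gene symbol Atxn7) and non-stop (gene symbol not). In all groups, controls included, flies were kept at 25 °C, larvae received heat shocks of 2 h at 37 °C on 2 days to make germline clones, and adult females had 2 to 3 days on yeast ahead of dissection. The labels give the controls as wt and FRT, and name no alleles, ages or number of animals per library. In this method germ cells are made mutant by recombination at FRT sites. Whether the follicle cells and the muscle sheath that surround them also held mutant cells is not given in the labels. A lower level in whole ovaries can come, among other sources, from fewer germ cells or from less RNA per germ cell, which cannot be told apart.

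The mutated genes were read first as a check of the labels. RPKM is the reads on a gene scaled by its length and by a library size. That size was 0.90 to 1.08 times each library's reads on genes. Ada2b was at 6.17 to 8.75 RPKM in the ada2b libraries and at 44.4 to 46.5 RPKM in their controls. The gene not was at 1.52 to 1.82 RPKM in the non-stop libraries against 17.9 to 24.0 RPKM. Atxn7 went the other way, at 12.4 to 12.5 RPKM in the libraries labelled Ataxin-7 against 7.59 to 7.92 RPKM in their controls, so that its level does not show the mutation there. Libraries held between 22608227 and 42018393 reads on genes. The first ada2b library stood apart from the other ada2b libraries, with a chi-square over degrees of freedom of 365 and 252 against them and of 47.1 between the others, and of 8.84 to 74.6 for the replicate pairs of all other groups. The ada2b ovaries also differed from their controls in cell type markers. The 6 chorion genes, made by late follicle cells, were all lower (summed level 951 to 2700 RPKM against 18870 to 21385 RPKM). Of the 4 vitelline membrane genes, also of follicle cells, only 1 was lower (10745 to 14978 RPKM against 12629 to 17258 RPKM). Of the 8 muscle genes 7 were higher (223 to 355 RPKM against 53.8 to 70.5 RPKM). Of the 7 germline markers 4 were lower and 1 was higher (226 to 317 RPKM against 435 to 474 RPKM). These counts stand beside 42.3% of all genes tested being lower and 25.6% higher in ada2b. The fat body marker Lsp2 was also higher (log2 change 2.32, or 1.61 without the first ada2b library). The fat body list, at 4.82 to 33.7 RPKM against 1.03 to 2.74 RPKM, was nearly all Lsp2. Its other genes, Fbp1 and Fbp2, stayed at or below 0.113 RPKM in every library and were not tested. Sums of neuron and testis markers stayed below 1 RPKM in every library of the series.

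In the BDGP6.54 annotation, whose coordinates are not those of the dm3 build behind the table, alphaTub67C (FBgn0087040) lies at 3L:9681268-9683370 on the plus strand, with 2 exons. alphaTub84B (FBgn0003884) lies at 3R:7086599-7088839 on the plus strand, with 2 exons. alphaTub84D (FBgn0003885) lies at 3R:7530753-7532732 on the plus strand, with 1 exon. gammaTub23C (FBgn0260639) lies at 2L:2972891-2974858 on the plus strand, with 3 exons. gammaTub37C (FBgn0010097) lies at 2L:19183863-19185726 on the minus strand, with 2 transcripts. None of these 5 genes overlaps another annotated gene. alphaTub84B and alphaTub84D encode nearly the same protein from closely similar sequences. How reads that fit both were assigned is not given in the sources used here. The level of each, their split and their sum are therefore uncertain.

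In control ovaries the 5 genes covered a wide range of levels, compared here as RPKM recomputed with the exonic length. For those of the 5 with introns, the length behind the deposited values included the introns. alphaTub84B, the main ubiquitous alpha-tubulin, was highest in each experiment, at 1143 ± 64.3, 1064 ± 16.0 and 1418 ± 45.2 RPKM over exonic length (SD, n = 3) in the FRT controls of ada2b, Ataxin-7 and non-stop, in that order. alphaTub67C, the maternal alpha-tubulin, came second at 393 ± 16.5, 199 ± 6.82 and 496 ± 30.9. alphaTub84D followed at 114 ± 6.16, 114 ± 1.85 and 115 ± 18.5.

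gammaTub37C, the maternal gamma-tubulin, was at 112 ± 6.32, 89.4 ± 5.77 and 76.7 ± 10.7 on the same scale (SD, n = 3). Its 3 control values overlapped those of alphaTub84D in the ada2b experiment and lay below them in the other two. gammaTub23C, the gamma-tubulin of dividing cells in general, was lowest at 7.28 ± 0.598, 7.08 ± 0.836 and 16.2 ± 2.65. Every other step in this order was larger than the spread between control libraries. Values were normalized within each experiment, so levels set side by side across experiments are only descriptive.

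**Figure D1:**
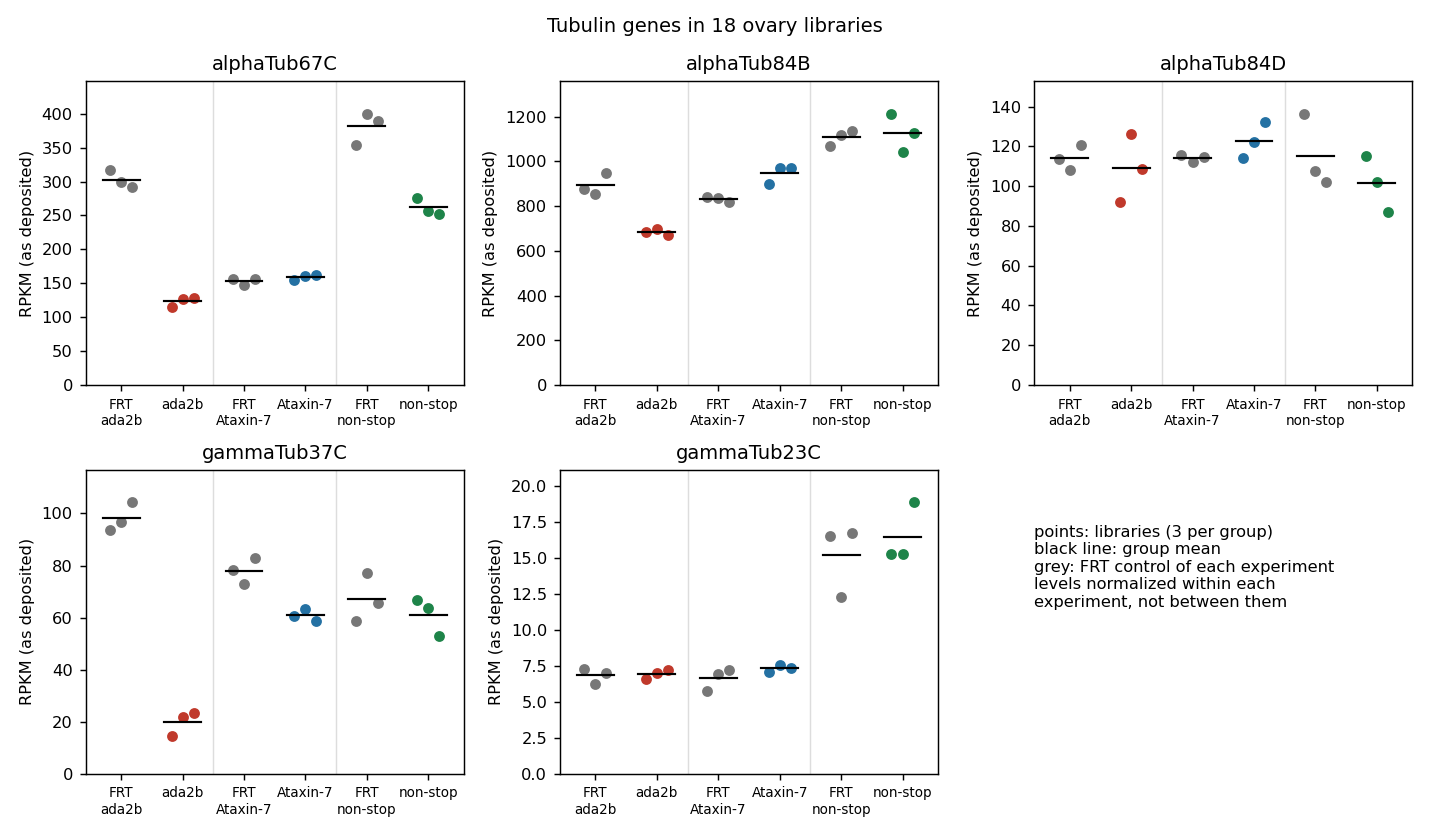
Deposited RPKM (vertical axis, starting at 0) of the 5 tubulin genes in each of the 18 libraries, with 3 points per group, the group mean as a black line and the FRT control of each experiment in grey to the left of the group compared with it. alphaTub67C and gammaTub37C were lower in all 3 ada2b libraries than in any of their controls, and alphaTub67C was also lower in all 3 non-stop libraries.

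The first comparison asked how the tubulin genes differed between ada2b mutant ovaries and their FRT control. Both maternal genes were lower, alphaTub67C by 2.45 times and gammaTub37C by 4.93 times in mean RPKM. The ubiquitous alphaTub84B was lower by 1.31 times, and alphaTub84D and gammaTub23C were not called changed with the values as deposited. A gene was called changed at a Benjamini-Hochberg adjusted p under 0.05 in limma, fitted on log2(RPKM + 1) over all genes with a mean of at least 1 RPKM. All 5 genes passed that filter in every comparison, and 3 of them were called in ada2b, where 67.9% of the 7674 genes tested were called (25.6% higher and 42.3% lower), so a count of 3 is near the background.

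alphaTub67C was at 115, 127 and 128 RPKM in the ada2b libraries and at 316, 299 and 292 RPKM in the controls. The groups lay far apart with no overlap, and each value rested on at least 4934 reads. On the log2(RPKM + 1) scale the gene fell by 1.29 (SE 0.072, limma adjusted p = 3.79e-05).

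gammaTub37C was at 14.5, 21.8 and 23.4 RPKM in the ada2b libraries and at 93.5, 96.8 and 104 RPKM in the controls. The first ada2b library, which held 551 reads of the gene, was the lowest, and the groups did not overlap. The gene fell by 2.27 on the log2 scale (SE 0.171, limma adjusted p = 8.78e-05), and without that library it fell by 2.07.

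alphaTub84B was at 684, 696 and 671 RPKM in the ada2b libraries and at 878, 852 and 949 RPKM in the controls. The groups did not overlap, but the gap was small beside those of the maternal genes. The gene fell by 0.38 on the log2 scale (SE 0.078, limma adjusted p = 0.00457). When each library was scaled to a common median over genes, its change was -0.11 with a limma adjusted p = 0.271.

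alphaTub84D was at 92.2, 126 and 109 RPKM in the ada2b libraries and at 114, 108 and 120 RPKM in the controls. Its groups overlapped, with a change of -0.08 (95% interval -0.36 to 0.21) that became 0.19 with scaling to a common median and 0.15 with quantile normalization. gammaTub23C was at 6.57, 7.03 and 7.18 RPKM in the ada2b libraries and at 7.30, 6.21 and 6.999 RPKM in the controls. These groups overlapped too, with a change of 0.02 (95% interval -0.17 to 0.21, limma adjusted p = 0.848), which with scaling to a common median became 0.26 (limma adjusted p = 0.0226).

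Scaling mattered in this experiment because the median change over all tested genes was -0.13 as deposited, 0.11 with the common median and -0.01 with quantile normalization. The split of called genes moved with it, to 40% higher and 28% lower with the common median and to 31.9% higher and 34.9% lower with quantile normalization. Relative to the median of all genes, alphaTub67C was at -1.15, -1.13 and -0.98 under these scalings, gammaTub37C at -2.14, -2.12 and -2.04, and alphaTub84B at -0.25, -0.23 and -0.30. All 3 called genes had ada2b values that did not overlap the control values, as did 76.2% of all genes tested. The median change of the 5 tubulin genes was -0.38.

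The maternal genes are read in germ cells, and the 7 germline markers, of which 4 fell and 1 rose, had a median change of -0.66 beside -1.29 for alphaTub67C and -2.27 for gammaTub37C. The marker median was -0.39 with the common median, -0.51 with quantile normalization and -0.53 without the first ada2b library. In each of these 4 markers fell and 2 rose. In the same order alphaTub67C was at -1.02, -0.99 and -1.24, and gammaTub37C at -2.01, -2.05 and -2.07. The part that germline, muscle and chorion cells had in the tubulin changes was not tested.

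The second comparison asked the same of the libraries labelled Ataxin-7. Here gammaTub37C was lower by 1.28 times and alphaTub84B was higher by 1.14 times, while alphaTub67C, alphaTub84D and gammaTub23C were not called. The count was thus 2 of 5, with 44.3% of the 7428 genes tested being called (20% higher and 24.3% lower). Both called genes had values that did not overlap, as did 57.2% of all genes tested. The median change was 0.10 over the 5 tubulin genes and -0.02 over all genes.

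gammaTub37C was at 60.7, 63.5 and 58.6 RPKM in the libraries labelled Ataxin-7 and at 78.2, 72.9 and 83.0 RPKM in the controls. The groups did not overlap, and all 3 controls were the higher ones. The gene fell by 0.35 on the log2 scale (SE 0.055, limma adjusted p = 0.00256), and one fit of all 18 libraries, which pools the spread of the other experiments, gave the same change with a limma adjusted p = 0.0832.

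alphaTub84B was at 898, 970 and 971 RPKM in the libraries labelled Ataxin-7 and at 842, 835 and 818 RPKM in the controls. All 3 libraries labelled Ataxin-7 were above the controls. The gene was higher by 0.19 (SE 0.047, limma adjusted p = 0.0166), and by 0.31 with quantile normalization. The call was lost in the fit of all 18 libraries (limma adjusted p = 0.0557) and without the second Ataxin-7 library (limma adjusted p = 0.0601) or the second control (limma adjusted p = 0.0511), with changes of 0.17 and 0.19.

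alphaTub67C did not follow the maternal gammaTub37C here, with 155, 160 and 163 RPKM in the libraries labelled Ataxin-7 and 156, 147 and 156 RPKM in the controls. The groups overlapped, and the interval of its change, -0.04 to 0.15, excludes a fall as large as that of gammaTub37C. alphaTub84D was at 114, 122 and 132 RPKM against 116, 112 and 115 RPKM (change 0.10, 95% interval -0.02 to 0.23). gammaTub23C was at 7.08, 7.56 and 7.35 RPKM against 5.75, 6.94 and 7.23 RPKM (change 0.13, 95% interval -0.05 to 0.31). Both of these genes overlapped their controls, but alphaTub84D was called at 0.16 with quantile normalization (limma adjusted p = 0.0365) and without the first Ataxin-7 library (limma adjusted p = 0.0415). In this experiment 5 of the 6 muscle markers tested were higher (summed level 89.4 to 113 RPKM against 59.1 to 73.1 RPKM). Of the 6 chorion genes 3 were lower (14245 to 16156 RPKM against 19618 to 20970 RPKM). Among germline markers 1 moved each way (579 to 597 RPKM against 580 to 634 RPKM). Of the 4 vitelline membrane genes 1 also moved each way (26785 to 30061 RPKM against 28292 to 36275 RPKM). Of all genes tested 20% were higher and 24.3% lower. Their part in the tubulin changes was not tested.

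The third comparison asked it of non-stop mutant ovaries. Only alphaTub67C was called, lower by 1.45 times in mean RPKM, whereas the other maternal gene, gammaTub37C, was not. The count was 1 of 5, below the 50.8% of 7492 genes tested that were called (25.7% higher and 25% lower). The median change was -0.13 over the 5 tubulin genes and -0.01 over all genes.

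alphaTub67C was at 276, 257 and 253 RPKM in the non-stop libraries and at 354, 400 and 389 RPKM in the controls. The groups did not overlap, as in 59.9% of all genes tested. The gene fell by 0.54 on the log2 scale (SE 0.080, limma adjusted p = 0.00130).

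gammaTub37C was at 66.6, 63.5 and 52.9 RPKM in the non-stop libraries and at 58.5, 77.0 and 65.6 RPKM in the controls. The groups overlapped widely, and the change of -0.13 had a 95% interval of -0.42 to 0.16 that still allows a fall as large as the one in the libraries labelled Ataxin-7. With quantile normalization its change was 0.03. alphaTub84B was at 1213, 1041 and 1129 RPKM against 1069, 1120 and 1137 RPKM, with non-stop values on both sides of the controls.

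The change of alphaTub84B was 0.02 (95% interval -0.19 to 0.23), but -0.05 with the common median and 0.68 with quantile normalization (limma adjusted p = 0.000415). alphaTub84D was at 115, 102 and 86.9 RPKM against 136, 107 and 102 RPKM, a change of -0.18 (95% interval -0.50 to 0.14) that was 0.05 with quantile normalization. gammaTub23C was at 15.3, 15.3 and 18.9 RPKM against 16.5, 12.3 and 16.7 RPKM, a change of 0.12 (95% interval -0.19 to 0.42). All 3 genes overlapped their controls. Among the markers, 2 of the 6 chorion genes were higher (summed level 8606 to 11276 RPKM against 3505 to 7780 RPKM), 3 of the 7 germline markers were higher and 1 was lower (381 to 445 RPKM against 394 to 410 RPKM), and no muscle marker was called (84.0 to 128 RPKM against 80.9 to 107 RPKM). No vitelline membrane gene was called (3718 to 6081 RPKM against 5202 to 8959 RPKM), though 2 were lower with the replicate block. With quantile normalization 5 chorion genes and 5 germline markers were higher and 0 of either list were lower. With the replicate block 3 chorion genes were higher. Their part in the tubulin changes was not tested.

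**Figure D2:**
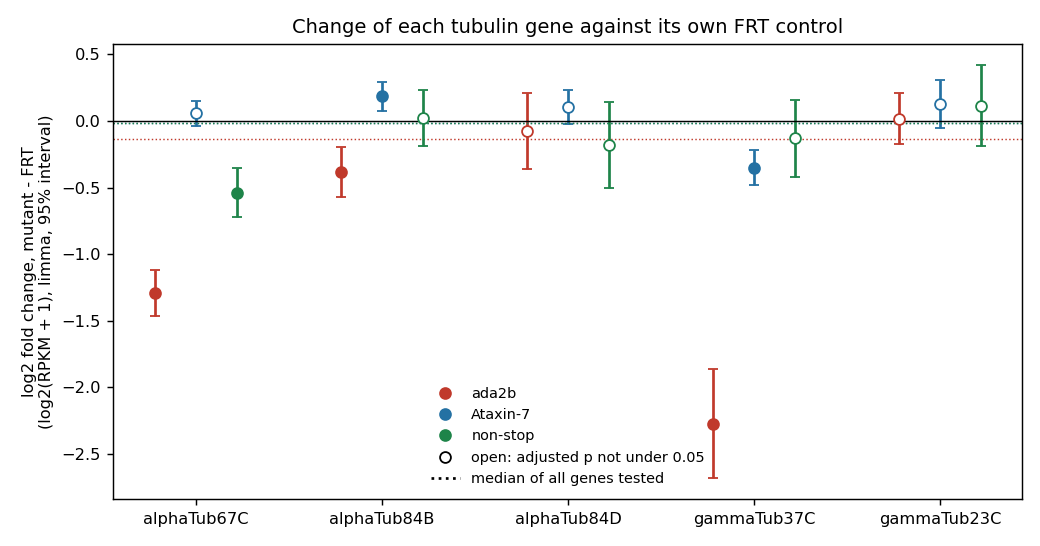
Change of each tubulin gene against its own FRT control (vertical axis, log2 fold change of RPKM + 1, with the 95% interval from limma), with ada2b in red, the libraries labelled Ataxin-7 in blue and non-stop in green. Filled points were called, open points were not, and dotted lines mark the median of all genes tested. The ada2b intervals of alphaTub67C and gammaTub37C lie below -1, and those of alphaTub84D and gammaTub23C span 0 in all 3 experiments.

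Recombination at an FRT site makes clones homozygous for the chromosome arm of the mutated gene, which is 3R for Ada2b, 2L for Atxn7 and 3L for not. alphaTub84B and alphaTub84D lie on 3R, the gamma-tubulin genes on 2L and alphaTub67C on 3L. For a gene on the arm of the mutated gene, the effects of the mutation and of other differences carried on that arm cannot be told apart.

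The changes of different experiments were then compared with each other by an interaction contrast in limma over 12 libraries. The ada2b change was more negative than the non-stop change for alphaTub67C, alphaTub84B and gammaTub37C, 3 of 5 genes, with 70.6% of 7618 genes tested being called (27% higher and 43.6% lower). The difference was -0.75 (SE 0.102, limma adjusted p = 7.16e-05) for alphaTub67C, or -0.41 with scaling to a common median, and -2.14 (SE 0.228, limma adjusted p = 1.43e-05) for gammaTub37C. For alphaTub84B it was -0.41 (limma adjusted p = 0.00720), with -0.07 (limma adjusted p = 0.618) under scaling to a common median and -1.02 under quantile normalization.

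Against the change in the libraries labelled Ataxin-7, the ada2b change was again more negative for the same 3 genes, with 68.5% of 7601 genes tested being called (26.3% higher and 42.2% lower). The difference was -1.35 for alphaTub67C (limma adjusted p = 3.12e-07), -1.92 for gammaTub37C (limma adjusted p = 9.04e-06) and -0.57 for alphaTub84B (limma adjusted p = 0.000157), the last of which was -0.29 with scaling to a common median. These comparisons share the ada2b libraries and their controls with the preceding one. With scaling to a common median the split of called genes moved to 39.9% higher and 28.1% lower in the contrast with non-stop and to 39.4% higher and 28.5% lower in that with Ataxin-7, and with quantile normalization to 32% higher and 36% lower and to 32.2% higher and 35.1% lower.

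The changes in the libraries labelled Ataxin-7 and in non-stop differed in 1 of 5 genes, with 37.5% of 7482 genes tested being called (16.8% higher and 20.7% lower, or 22.8% and 16.9% with scaling to a common median). The change of alphaTub67C in the libraries labelled Ataxin-7 exceeded that in non-stop by 0.60 (SE 0.082, limma adjusted p = 0.000313). For gammaTub37C the changes differed by -0.22 with a 95% interval of -0.54 to 0.10 (limma adjusted p = 0.262), so these changes were not shown to differ. For alphaTub84B the difference was 0.16 (limma adjusted p = 0.199), and -0.46 (limma adjusted p = 0.000992) with quantile normalization.

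The maternal genes were also expressed as a share of their own tubulin family within each library, which does not depend on library scaling. The alphaTub67C share does carry the uncertainty about reads that fit both alphaTub84B and alphaTub84D. alphaTub67C made 13.4%, 14.0% and 14.7% of the summed alphaTub67C, alphaTub84B and alphaTub84D level per kilobase of exons in the ada2b libraries and 25.0%, 24.5% and 22.1% in the controls. It made 13.8%, 13.3% and 13.3% in the libraries labelled Ataxin-7 against 14.6%, 14.0% and 14.9%. In the non-stop libraries it made 17.7%, 18.9% and 17.7% against 23.5%, 25.3% and 24.5%.

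The alphaTub67C share was thus below the controls in all 3 experiments with no overlap. In the libraries labelled Ataxin-7 the mean of alphaTub67C itself was 1.04 times that of the controls with no call, and that of alphaTub84B was 1.14 times. The mean alphaTub67C share differed by -9.85 percentage points in ada2b, -1.01 in the libraries labelled Ataxin-7 and -6.32 in non-stop. Each exact two-sided permutation test gave p = 0.1, which is the smallest that 3 libraries against 3 allow.

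gammaTub37C made 70.3%, 76.9% and 77.8% of the summed gammaTub23C and gammaTub37C level in the ada2b libraries and 93.2%, 94.4% and 94.1% in the controls. It made 90.2%, 90.0% and 89.5% in the libraries labelled Ataxin-7 against 93.6%, 91.9% and 92.5%. In the non-stop libraries it made 82.4%, 81.7% and 75.1% against 79.2%, 87.0% and 80.8%.

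gammaTub37C was the larger part of gamma-tubulin RNA in every library of the series, with its lowest share, 70.3%, in the first ada2b library. Its mean share differed by -18.9 percentage points in ada2b and by -2.72 in the libraries labelled Ataxin-7, without overlap (exact two-sided permutation p = 0.1 each), and by -2.62 in non-stop, where the groups overlapped (exact two-sided permutation p = 0.6). The non-stop difference was -0.27 without the second control and -0.29 without the third non-stop library.

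**Figure D3:**
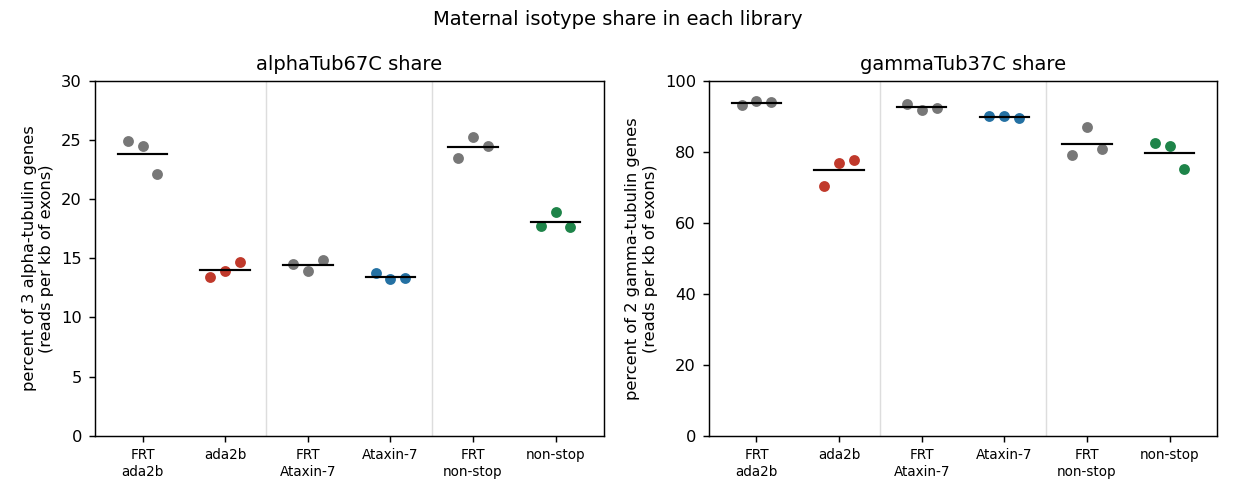
Share of alphaTub67C in the summed level of the 3 alpha-tubulin genes (left, axis 0 to 30%) and of gammaTub37C in that of the 2 gamma-tubulin genes (right, axis 0 to 100%), per kilobase of exons, with 3 libraries per group, the mean as a black line and controls in grey. The alphaTub67C share was 14.0% on average in ada2b against 23.9% in its controls, and the gammaTub37C share 75.0% against 93.9%.

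Across all 18 libraries, each value was set relative to the FRT mean of its experiment and the genes were compared by Pearson correlation. The points share their libraries, experiments and controls, so the values only describe likeness. alphaTub67C and gammaTub37C had r = 0.89, alphaTub67C and alphaTub84B r = 0.84, and alphaTub84B and gammaTub37C r = 0.81. These 3 genes were all called lower in ada2b, as were 42.3% of all genes tested. In the libraries labelled Ataxin-7 alphaTub67C, alphaTub84B and gammaTub37C changed by 0.06, 0.19 and -0.35, and in non-stop by -0.54, 0.02 and -0.13. The part of the ada2b libraries in these r values was not tested. Pairs with alphaTub84D or gammaTub23C ranged from r = -0.03 to 0.35.

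Among 6149 genes with a mean of at least 5 RPKM, those most like alphaTub67C over the 18 libraries were dpa (r = 0.99), a subunit of the MCM replicative helicase, Cap-D2 (r = 0.99), a condensin subunit, and Marcal1 (r = 0.99), a DNA annealing helicase. Those most like gammaTub37C were Caf1-55 (r = 0.99), a histone-binding protein of several chromatin complexes, CG9705 (r = 0.99) and Hat1 (r = 0.99), a histone acetyltransferase. For alphaTub84B they were jub, Atxn7 and CG2187, each with r = 0.95. alphaTub84D was most like Vm26Aa (r = 0.81), Vm34Ca (r = 0.80) and psd (r = 0.80), which encode vitelline membrane proteins, and gammaTub23C had no close match, with Zif (r = 0.72), CG6650 (r = 0.68) and DCTN5-p25 (r = 0.64) as the nearest.

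Of 6 other tubulin genes listed, 5 were found in the table and betaTub60D was not analysed here. Of the 5, alphaTub85E, betaTub65B, the testis beta-tubulin betaTub85D and CG7794 stayed at or below 0.336 RPKM in every library and were not tested. betaTub97EF was between 1.10 and 2.73 RPKM. It was higher in ada2b (mean 2.64 against 1.51 RPKM, log2 change 0.54) and was not called in the libraries labelled Ataxin-7 (-0.06) or in non-stop (-0.27, limma adjusted p = 0.0548). It was called lower in non-stop with the common median (-0.31), quantile normalization (-0.32) and voom (-0.44), and in the libraries labelled Ataxin-7 with quantile normalization (-0.22).

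Genes that act together with gamma-tubulin were read next, and each list's counts stand against all genes tested, of which 42.3% were lower and 25.6% higher in ada2b, 24.3% and 20% in the libraries labelled Ataxin-7, and 25% and 25.7% in non-stop. The gamma-tubulin complex list held 7 genes, of which 6 were tested. In ada2b all 6 fell, with a median change of -1.27, also when scaled to the common median (-1.01) or by quantile normalization (-1.12). Grip71, which recruits ring complexes to the spindle, fell from a mean of 52.3 to 16.7 RPKM (log2 change -1.59), Grip91, a core subunit, from 16.8 to 5.80 RPKM (-1.41) and Grip75 from 32.6 to 12.8 RPKM (-1.29). In the libraries labelled Ataxin-7, 1 was higher and 2 were lower, and in non-stop 1 was higher and 1 was lower. Grip84, a core subunit, fell in both (-0.42 and -1.07), and Grip71 rose in both (0.29 and 0.38).

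The centrosome list of 8 genes moved likewise in ada2b, where 7 fell (median change -1.30, and -1.05 with the common median). spd-2, which builds the pericentriolar material, fell from 71.6 to 18.5 RPKM (-1.91), and the centriole duplication genes ana2 and Sas-4 changed by -1.73 and -1.62. In the libraries labelled Ataxin-7, 2 fell (spd-2 at -0.31 and asl at -0.15) and 1 rose (Plp at 0.28). In non-stop 2 fell, among them spd-2 (-0.75), and 2 rose, SAK (0.44) and Plp (0.52).

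Of 22 genes for microtubule-binding proteins and motors tested in ada2b, 17 fell and 1 rose (median change -0.68), with 12 falling and 3 rising under the common median and 14 falling and 0 rising under quantile normalization. The strongest falls under the rule for naming genes were of the spindle genes asp (-1.88), sub (-1.71) and ncd (-1.69), of which sub and ncd encode kinesins that act in the oocyte's meiotic spindle. In the libraries labelled Ataxin-7 5 of 21 rose and 1 fell, among them tacc (0.33), a centrosomal microtubule regulator, the mitotic kinesin gene Klp61F (0.32) and ncd (-0.23). In non-stop 3 of 22 rose and 5 fell, among them Dhc64C (0.59), the heavy chain of cytoplasmic dynein, Khc (-0.59), the heavy chain of kinesin-1, and ncd (-0.56).

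Tubulin is folded with help from prefoldin, the CCT chaperonin and tubulin-binding cofactors. Of 18 such genes tested, 11 fell and 2 rose in ada2b (42.3% and 25.6% of all genes), a split that scaling changed to 5 falling and 6 rising with the common median and to 5 of each with quantile normalization. The cofactor genes Tbcb (mean 60.4 to 29.7 RPKM), Tbcd (27.8 to 13.5 RPKM) and Tbcc (29.9 to 17.1 RPKM) fell most under the rule for naming genes. In the libraries labelled Ataxin-7 9 fell and 2 rose (24.3% and 20% of all genes, median change -0.14, with 7 falling and 4 rising under quantile normalization), with Tbcd at -0.55 and the prefoldin genes Pfdn4 and Pfdn1 at -0.48 and -0.28. In non-stop 13 fell and 3 rose (25% and 25.7% of all genes, median change -0.41), led by CCT6 (-0.65), Pfdn4 (-0.64) and mgr, a prefoldin subunit (-0.64). Under the common median 14 fell and 2 rose there, and under quantile normalization 11 fell and 3 rose.

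Of 4 enzymes that modify tubulin, 3 fell and 1 rose in ada2b, where 67.9% of all genes were called, with HDAC6, a deacetylase, at -0.86, TTLL5, a glutamylase, at -0.81 and Sirt2, a deacetylase, at 0.78. HDAC6 was the 1 enzyme called in the other experiments, at -0.23 in the libraries labelled Ataxin-7 and -0.39 in non-stop, with 44.3% and 50.8% of all genes called. Without the first ada2b library the counts of called genes in ada2b were 6 of 6 for the gamma-tubulin complex, 7 of 8 for the centrosome, 20 of 22 for microtubule-binding proteins and motors, 12 of 18 for folding and 4 of 4 for the enzymes, with 72.7% of all genes called in that fit. The chorion, muscle and germline marker values given for each experiment stand beside all these lists, and their part in them was not tested.

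**Figure D4:**
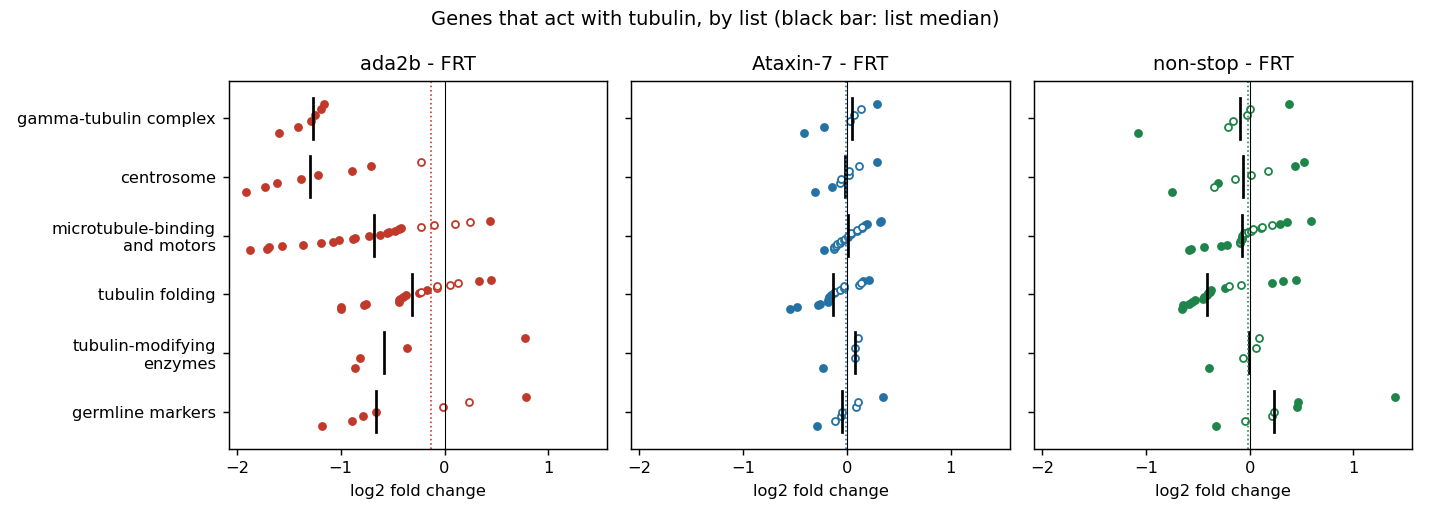
Change of genes that act with tubulin, by list (rows), against the FRT control in each experiment (horizontal axis, log2 fold change), with 1 point per gene, filled where called, a black bar at the list's median and a dotted line at the median of all genes tested. In ada2b the gamma-tubulin complex and centrosome medians lie at -1.27 and -1.30 against -0.13 for all genes, while in the other 2 experiments both lie near 0.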

How the data were processed

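Poly(A) RNA was measured in 18 libraries. The authors deposited one table of RPKM values, and the submitters' processing notes name CASAVA 1.8.2, TopHat2 2.0.13, edgeR 3.14.0 and the dm3 build. A stranded library kit is named, while the use of strand in counting is not given in the sources used here. All values above 0 of 13903 genes were whole multiples of 1 read within 0.001 of a read. Of 7474 genes with introns and deep coverage, the length was the full gene span for 3027 and the exonic length for 1.

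Each mutant was fitted with its own control in limma 3.58.1 (R 4.3.3), using log2(RPKM + 1) of all genes whose mean was 1 RPKM or more and eBayes with a mean-variance trend. Family shares were tested with exact permutation tests in Python 3.11.15 with scipy 1.17.1. The fit was also run on simulated data, with the same spread set for every gene and library and no outlying library. That setting differs from the replicates here, so the simulation does not show how the fit performs on them. Groups and replicate numbers came from the labels, which state biological triplicates. No 2 replicates agreed within sampling noise (chi-square over degrees of freedom 8.84 to 365). Alternatives were filters of none and of 5 RPKM in the mean, a pseudocount of 0.1, common median scaling, quantile normalization, one fit of all 18 libraries, eBayes with no trend, a replicate block, voom on the recovered reads and leaving out each library. The gene lists were run under common median scaling, quantile normalization, voom, the block and without the first ada2b library, alternatives chosen after seeing the data.

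The tubulin genes, lists and tests were chosen with earlier results of these data known. Named genes were the tubulin genes, the mutated genes, up to 3 called genes without overlap per list and mutant with the largest changes, and the 3 genes most like each tubulin gene. BDGP6.54 supplied symbols and positions. The listed genes betaTub60D, CCT8, stai, Nna1, vas and wupA were not matched to a row.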

Additional observations from a re-analysis of the deposited data

Results flagged for a closer look

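The changes of 3 tubulin genes differed between experiments by a limma interaction test, on the log2(RPKM + 1) scale. Of 5 genes, 3 were called in ada2b against non-stop, 3 in ada2b against Ataxin-7 and 1 in Ataxin-7 against non-stop. Over all genes tested 70.6%, 68.5% and 37.5% were called in that order, so these counts do not exceed the background. For alphaTub67C the ada2b change differed from the non-stop change by -0.75 and from the Ataxin-7 change by -1.35, and the Ataxin-7 change from the non-stop change by 0.60. For gammaTub37C the ada2b change differed by -2.14 from non-stop and by -1.92 from Ataxin-7. For alphaTub84B the same differences were -0.41 and -0.57. With scaling to a common median they were -0.07 (limma adjusted p = 0.618) and -0.29. Differences that use the libraries labelled Ataxin-7 carry the limit that Atxn7 itself was not lower there.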

How the results depend on the processing

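The count of called tubulin genes was 3 in ada2b under all 15 alternatives, although under the common median gammaTub23C took the place of alphaTub84B. Of all genes tested, 47.3% to 75.8% were called under these alternatives, so a steady count does not set the tubulin genes apart. In the libraries labelled Ataxin-7 the count of 2 became 0 with one fit of all 18 libraries, where 24.5% of all genes were called. It ranged from 1 to 3 when 1 library was left out, with 34.4% to 39.1% of all genes called. With quantile normalization the count became 2 in non-stop (47.5% of all genes called) and 2 in the contrast of Ataxin-7 with non-stop (35%). The other 150 values of counts and shares kept the direction of each share, and each count stayed within 1.5 times, but the gammaTub37C share difference in non-stop moved from -2.62 to between -4.19 and -0.27 when 1 library was left out. For Ataxin-7 the count moved by 1 to 3 with quantile normalization (42.8% of all genes called) and without its first library (37.3%). The count moved by 1 to 2 in ada2b against non-stop with the common median (68%). It moved by 1 to 4 in ada2b against Ataxin-7 without the second ada2b library (70.4%). The cause of these shifts was not tested.

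Directions turned for small changes. With scaling to a common median the change became 0.19 for alphaTub84D in ada2b, -0.048 for alphaTub84B in non-stop, 0.21 for gammaTub23C in ada2b against non-stop, and 0.10 for alphaTub84D and 0.13 for gammaTub23C in ada2b against Ataxin-7. With quantile normalization it became 0.15 for alphaTub84D in ada2b, 0.047 for alphaTub84D and 0.028 for gammaTub37C in non-stop, 0.059 for gammaTub23C in ada2b against non-stop, -0.46 for alphaTub84B in Ataxin-7 against non-stop and 0.00074 for gammaTub23C in ada2b against Ataxin-7.

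Leaving out 1 library gave ranges across 0 of -0.18 to 0.038 for alphaTub84D and -0.040 to 0.061 for gammaTub23C in ada2b, and of -0.032 to 0.079 for alphaTub84B and -0.018 to 0.19 for gammaTub23C in non-stop. In ada2b against non-stop the ranges were -0.023 to 0.22 for alphaTub84D and -0.17 to 0.037 for gammaTub23C, and in Ataxin-7 against non-stop -0.074 to 0.15 for gammaTub23C.

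Same-numbered mutant and control libraries did not deviate together (r from -0.38 to 0.13 over genes), so the numbers were not taken as pairs. Differently numbered libraries reached larger values in the Ataxin-7 experiment. The first Ataxin-7 library had r = 0.49 with the third control and -0.42 with the second, and the third had r = 0.36 with the second control. The source of these values was not tested. With the replicate block the count was 3 in ada2b, 1 in non-stop and 1 in the libraries labelled Ataxin-7, where alphaTub84B had a limma adjusted p = 0.0536. Of all genes tested 65.7%, 46.7% and 36.6% were called with the block, in that order. The differences in share within same-numbered libraries had exact permutation p of at least 0.25, the smallest that 3 pairs allow.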
